A study of Mus musculus with 1646 samples.

Results

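The R-spondins are a family of 4 secreted ligands, *Rspo1*, *Rspo2*, *Rspo3* and *Rspo4*, and their receptors are the leucine-rich repeat receptors *Lgr4*, *Lgr5* and *Lgr6*. These 7 genes were followed in mesenchymal cells of the mouse colon. They were taken from 46517 genes in the table by their Ensembl identifiers, and 6 of the 7 had at least 1 count in any cell. The cells, 1646 in all, came from male mice aged 10 to 20 weeks on a C57Bl6/J background, and each was sequenced as its own SmartSeq2 library, a full-length cDNA method. The CD31 antibody was used to leave out endothelial cells, and sorting used 4 reporter lines. The lines were PdgfrbGFP (46.2% of the cells), Acta2GFP (34.4%), PdgfraGFP (13.8%) and Cspg4dsRED (5.53%), in which the regulatory sequence of the named gene drives GFP or dsRED, so each line holds only the cells its reporter and gate let through. Acta2GFP tissue was also treated with elastase, so line and dissociation cannot be told apart there. The labels name no mouse, so a line counted as 1 sample, and p-values measure the spread between lines.

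The cells fall into 8 clusters of the authors' deposited annotation. They hold fibroblasts of the crypt base (cluster 7, 13.5% of the cells), base to middle (cluster 5, 25.8%), middle (cluster 1, 29.3%), middle to apex (cluster 6, 2.73%) and apex (cluster 2, 7.96%). The mural cells are the pericytes of cluster 4 (8.63%), the vascular smooth muscle cells (SMC) of cluster 3 (8.57%) and the interstitial SMC of cluster 8 (3.40%). Listed markers were checked against these names. *Foxl1* had 145.8 ± 30.4 and *Il1rl1* 269.7 ± 140.4 (SD, n = 3 lines) counts per 500000 in cluster 2, against 0.661 ± 0.714 and 1.03 ± 0.685 (SD, n = 4 lines) in cluster 5, but *Foxl1* also had 62.6 in cluster 8, the interstitial SMC. *Ptgs2* had 1093 ± 261.5 (SD) in cluster 2 and 28.8 ± 11.9 in cluster 5. *Tnc* had 1972 ± 120.8 in cluster 2 but also 542.4 ± 12.2 in cluster 1. *Cd34*, listed for deep fibroblasts, had 1293 ± 246.7 in cluster 7 and 41.3 ± 37.4 in cluster 2. The 3 pericyte markers summed to a mean of 4215 in cluster 4 and 904.8 in cluster 3. *Hhip* had 1339 in cluster 8, while *Rgs10* had 470.4 there and 312.9 ± 54.3 in cluster 2. The depth of a cell, its sum of counts on genes, was 248628 at the median and lay between 47598 and 1494292, and no 2 cells held the same counts. A level below is the mean over cells of counts per 500000 counts on genes, given for each line with at least 10 cells of a cluster, and the mean ± SD over lines.

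WNT ligands hold intestinal stem cells in division at the base of the crypt, and R-spondins amplify this signal. An R-spondin bridges an LGR receptor to the membrane ligases ZNRF3 and RNF43, which otherwise remove the Frizzled and LRP receptors for WNT from the cell surface. In the gut, R-spondins come from the mesenchyme below the epithelium, and LGR5 is best known as the marker of the epithelial stem cell.

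Promoter sequence of 4 of the 7 genes was at hand from RefSeq (GRCm38.p6), and *Rspo2*, *Rspo3* and *Lgr5* had no entry. Those of a ligand expressed here, of the ligand with no count and of the most widely counted receptor are printed, since the *Lgr4* window held fewer CpG dinucleotides than the other two. Each line is the 250 bases before the annotated start, 5′ to 3′ on the gene's strand, with CpG dinucleotides in capitals. They are chr4:124986180-124986429 (plus strand) for *Rspo1*, chr2:151842677-151842926 (plus) for *Rspo4* and chr2:109917397-109917646 (plus) for *Lgr4*.
Rspo1: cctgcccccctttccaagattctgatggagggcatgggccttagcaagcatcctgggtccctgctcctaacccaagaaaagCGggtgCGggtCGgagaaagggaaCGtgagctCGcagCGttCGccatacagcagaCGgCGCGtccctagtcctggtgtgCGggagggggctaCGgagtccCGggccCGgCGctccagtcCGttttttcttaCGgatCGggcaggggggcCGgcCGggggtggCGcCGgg
Rspo4: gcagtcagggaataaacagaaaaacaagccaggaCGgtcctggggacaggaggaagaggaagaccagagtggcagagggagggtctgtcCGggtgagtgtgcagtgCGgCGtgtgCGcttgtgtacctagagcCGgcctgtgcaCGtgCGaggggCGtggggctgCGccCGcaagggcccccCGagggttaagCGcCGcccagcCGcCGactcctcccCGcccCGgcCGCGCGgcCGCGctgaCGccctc
Lgr4: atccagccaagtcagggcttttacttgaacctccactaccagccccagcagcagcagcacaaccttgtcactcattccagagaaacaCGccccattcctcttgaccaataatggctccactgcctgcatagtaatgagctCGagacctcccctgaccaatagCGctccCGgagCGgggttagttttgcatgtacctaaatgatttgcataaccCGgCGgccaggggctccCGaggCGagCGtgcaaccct

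The *Rspo1* window held 22 CpG dinucleotides, more than 85.4% of 27025 mouse promoter windows of this length, and that of *Rspo4* held 24, more than 88.3%. The *Lgr4* window held 10, more than 61.8%. Of motifs, 3 were searched on both strands, the TCF/LEF core CTTTGA, the TATA box TATAAA and the GC box GGGCGG, which are present in 14.05%, 12.97% and 32.9% of all windows. The only match in the 3 printed windows was the GC box, which *Rspo4* held at 2 places, starting 55 and 33 bases before the start. A match describes letters and not a bound site.

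*Rspo3* was the R-spondin with the most counts, 17311 against 5055 for *Rspo1* and 712 for *Rspo2*, and it was found in the fibroblasts of the crypt base and middle and hardly at all at the apex. The gene lies at chr10:29452416-29535867 (minus strand, GRCm38) and encodes the R-spondin best known from stroma and vessels. It shares exon bases with the antisense gene *Gm48159*, which is not among the 46517 genes counted. Whether the counting used strand is not given in the sources used here. In cluster 7 its level was 22.8 in Acta2GFP, 26.8 in PdgfrbGFP and 5.43 in PdgfraGFP mice. In cluster 5 it was 24.3 in Acta2GFP, 23.04 in PdgfrbGFP, 19.2 in PdgfraGFP and 7.64 in Cspg4dsRED mice. In cluster 1 it was 25.98 in Acta2GFP, 11.7 in PdgfrbGFP and 8.87 in PdgfraGFP mice. The 3 clusters overlapped, with means of 18.4 ± 11.4 (SD, n = 3 lines), 18.5 ± 7.59 (n = 4) and 15.5 ± 9.16 (n = 3), and in each of them Acta2GFP and PdgfrbGFP cells were above PdgfraGFP cells. The low PdgfraGFP value of cluster 7 came from 15 cells, 1 of which held 92.99% of it.

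In the apex fibroblasts of cluster 2 the *Rspo3* level was 0.166 in Acta2GFP, 0.0458 in PdgfraGFP and 0.974 in PdgfrbGFP mice. All 3 values lay below the lowest value of clusters 1, 5 and 7. In cluster 6, named for middle to apex, it was 1.33 in Acta2GFP and 0.0396 in PdgfraGFP mice. Of the apex markers, *Foxl1* stood at 10.6 ± 2.42 there (SD, n = 2 lines) against 11.3 ± 10.1 in cluster 1 (n = 3), and *Tnc* at 421.4 ± 96.2 against 542.4 ± 12.2. The other apex markers had higher means in cluster 6, *Ptgs2* at 46.1 ± 27.7 against 21.6 ± 21.6 and *Il1rl1* at 1.79 ± 2.53 against 0.824 ± 0.401. *Cd34*, the deep fibroblast marker, stood at 30.2 ± 25.6, against 595.1 ± 101.3 in cluster 1 and 41.3 ± 37.4 in cluster 2. The 3 smooth muscle markers summed to a mean of 962.1 in cluster 6, against 179.5 in cluster 1 and 199.6 in cluster 2. Most of this sum was *Acta2* at 908.5 ± 615.2, while *Myh11* stood at 50.7 ± 50.2 against 8.60 ± 8.74 in cluster 1 and 34.9 ± 15.9 in cluster 2, and *Cnn1* at 2.88 ± 4.07 against 1.83 ± 1.63 and 1.43 ± 1.34. *Tagln*, a contractile gene of the mural list, stood at 220.2 ± 167.9 against 20.8 ± 14.7 and 7.21 ± 6.37. The rest of that list had lower means in cluster 6 than in cluster 1. *Notch3* stood at 0.249 against 2.75, *Mcam* at 0.885 against 1.19, *Rgs5* at 3.01 against 51.5 and *Des* at 2.53 against 30.3. *Pdgfra*, *Col1a1*, *Dcn* and *Lum* summed to a mean of 3435 in cluster 6, against 5297 in cluster 1 and 3690 in cluster 2. In vascular SMC *Myh11* had 1856 ± 290.8 and *Cnn1* 309.8 ± 108.1 (SD, n = 3 lines). The part of smooth muscle cells in the values of cluster 6 was not tested. The pericytes of PdgfrbGFP mice had an *Rspo3* level of 7.39 and those of Cspg4dsRED mice 0.243, the former carried by 11 cells. Vascular SMC had 1.35 in Acta2GFP, 0 in Cspg4dsRED and 2.01 in PdgfrbGFP mice, and interstitial SMC had 0.628 in Acta2GFP mice. By mean level the order was thus cluster 5, 7, 1, 4, 3, 6, 8 and 2, and the only neighbours whose lines did not overlap were clusters 1 and 4. Fibroblast markers (*Pdgfra*, *Col1a1*, *Dcn*, *Lum*) summed to 733 to 1690 in the pericytes of the 2 lines, with 4 of 4 above 10, against 5069 to 7777 over the lines of clusters 1 and 5, and their part in the pericyte value was not tested.

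*Rspo1*, at chr4:124986430-125009099 (plus strand), another canonical LGR ligand and one long used as a growth factor for intestinal tissue in culture, was far more restricted. Its level in cluster 5 was 1.97 in Acta2GFP, 13.8 in PdgfrbGFP, 14.6 in PdgfraGFP and 32.9 in Cspg4dsRED mice. The last value came from 1 of 13 cells. In cluster 1 it was 2.90 in Acta2GFP, 2.45 in PdgfraGFP and 0.776 in PdgfrbGFP mice, and 1 cell held 87.9% of the first and 99.1% of the second. Every other cluster lay at or under 0.220 in every line with at least 10 cells, including the 3 lines of cluster 7, at 0.00863, 0.138 and 0.220. The means were 15.8 ± 12.8 (SD, n = 4 lines) in cluster 5, 2.04 ± 1.12 (n = 3) in cluster 1 and 0.122 ± 0.107 (n = 3) in cluster 7, and clusters 5 and 1 overlapped through the Acta2GFP line, where cluster 1 was the higher one.

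*Rspo2*, at chr15:43020794-43170826 (minus strand), which binds all 3 LGR receptors, had 712 counts in all. In cluster 1 its level was 2.86 in Acta2GFP, 1.37 in PdgfraGFP and 1.72 in PdgfrbGFP mice, from 10 cells, of which 1 gave the whole PdgfraGFP value. In cluster 5 it was 0.0841 in Acta2GFP, 0 in Cspg4dsRED, 2.22 in PdgfraGFP and 0.885 in PdgfrbGFP mice. No cell of clusters 2, 3, 4 and 6 held a count, and clusters 7 and 8 stayed at or under 0.0712 in every line. *Rspo4*, at chr2:151842927-151874668 (plus strand), was not counted in any of the 1646 cells. The limit that a count of 0 allows was 0.230% of the 1307 fibroblasts and 0.885% of the mural cells with a count, for counting error alone.

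Per kilobase of exon, on which genes can be compared, the level in cluster 5 was 8.16 ± 6.60 for *Rspo1* and 6.00 ± 2.46 for *Rspo3* (SD, n = 4 lines), with overlapping lines, and in cluster 1 it was 1.05 ± 0.578, 0.388 ± 0.152 and 5.02 ± 2.97 (n = 3) for *Rspo1*, *Rspo2* and *Rspo3*. In cluster 7 *Rspo3* stood at 5.94 ± 3.68 against 0.0631 ± 0.0550 for *Rspo1*. Transcripts of these 3 R-spondins were counted in each of the 3 clusters. As levels not divided by exon length, *Rspo1* and *Rspo3* had means above 1 in cluster 5 and *Rspo2* had 0.797. In cluster 1 all 3 had means above 1. In cluster 7 only *Rspo3* did, with *Rspo1* at 0.122 and *Rspo2* at 0.0237.

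**Figure D1:**
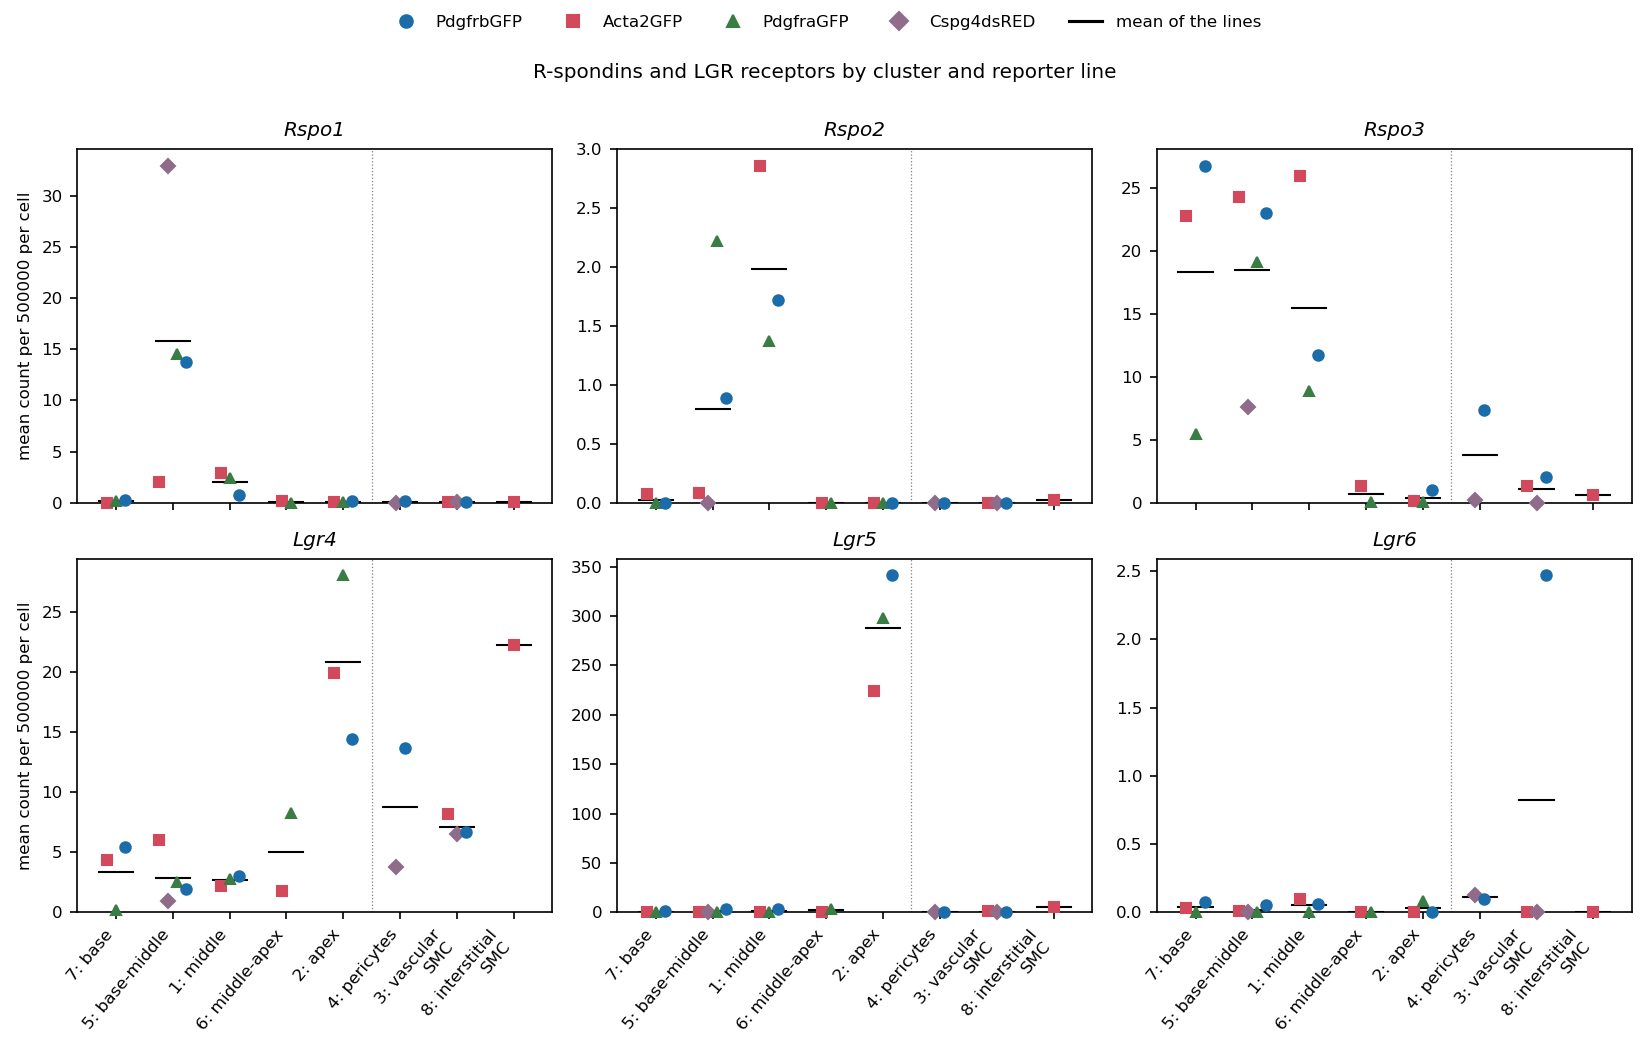
Mean count per 500000 per cell (vertical axes, each with its own range) of the 6 counted genes in the 8 clusters, fibroblasts from crypt base to apex on the left of the dotted line and mural cells on the right. Points are reporter lines with at least 10 cells and bars their mean; *Rspo3* lies at 5.43 to 26.8 in clusters 7, 5 and 1 and under 1 in cluster 2, where *Lgr5* lies at 224.6 to 341.1.

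Among the receptors, *Lgr5*, at chr10:115450311-115587780 (minus strand), was the one with the sharpest distribution. In the apex fibroblasts its level was 224.6 in Acta2GFP, 297.9 in PdgfraGFP and 341.1 in PdgfrbGFP mice, a mean of 287.8 ± 58.9 (SD, n = 3 lines). No other cluster and line passed 5.33, the value of the interstitial SMC of Acta2GFP mice. The remaining means were 1.83 ± 2.21 (n = 2) in cluster 6, 1.29 ± 1.39 (n = 3) in cluster 1, 1.07 ± 1.52 (n = 4) in cluster 5, 0.647 ± 0.607 (n = 3) in cluster 7, 0.594 ± 0.877 (n = 3) in cluster 3 and 0.147 ± 0.208 (n = 2) in cluster 4. In this order cluster 2 did not overlap with any other. Cluster 8 was a single line, whose 2 plates stood at 6.79 and 0.437, a span that overlapped cluster 6, and all later neighbours overlapped. Cluster 6 of PdgfraGFP mice had 3.39 and that of Acta2GFP mice 0.262, a range that overlapped cluster 1.

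*Lgr5* is a stem cell gene of the epithelium, and epithelial markers were measured over all cells of cluster 2, of which 75 held a count of it. The 7 epithelial markers summed to 3.38 to 13.2 in the lines of cluster 2, with 0 of 7 at 10 or more, against 8.95 to 63.1 in cluster 1. *Epcam* reached at most 1.04 and *Cdh1* at most 0.423 in any line of cluster 2. The 4 fibroblast markers summed to 2733 to 4413 there, and the 5 mural markers to 1.06 to 35.4. Of 2 genes listed for interstitial cells of Cajal, *Ano1* stood at 170.8 ± 64.2 and *Kit* at 0.503 ± 0.861 in cluster 2 (SD, n = 3 lines).

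*Lgr4*, at chr2:109917647-110014257 (plus strand), the receptor with the broadest expression in adult tissues, was counted in every cluster. In cluster 2 its level was 19.9 in Acta2GFP, 28.01 in PdgfraGFP and 14.4 in PdgfrbGFP mice, above every other fibroblast cluster and line. The PdgfrbGFP value came from 8 of 30 cells, 1 of which held 64.7% of it, and without that cell it was 5.26, below cluster 6 of PdgfraGFP (8.27) and cluster 5 of Acta2GFP mice (5.98). In cluster 6 it was 1.77 in Acta2GFP and 8.27 in PdgfraGFP mice. Clusters 1, 5 and 7 lay at 2.22 to 3.01, 0.971 to 5.98 and 0.162 to 5.44 over their lines and overlapped. Among the mural cells it was 3.74 in Cspg4dsRED and 13.7 in PdgfrbGFP pericytes, 6.51 to 8.18 in the vascular SMC of 3 lines and 22.3 in the interstitial SMC of Acta2GFP mice. In the last group 15 of 52 cells held a count, and 1 cell held 39.3% of the level. Its 2 plates stood at 6.18 and 75.8, so that without the second plate the level was 6.18, below the means of clusters 2, 4 and 3. With both plates the order of means was cluster 8, 2, 4, 3, 6, 7, 5 and 1, and the only neighbours whose lines did not overlap were clusters 2 and 4, which overlapped once the highest PdgfrbGFP cell of cluster 2 was left out.

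*Lgr6*, at chr1:134983301-135105276 (minus strand), a receptor known from skin and smooth muscle, had the fewest counts of the 6 genes. The vascular SMC of PdgfrbGFP mice held 85.6% of them in 5 of 82 cells, a level of 2.47, while those of Acta2GFP and Cspg4dsRED mice held none. No other cluster and line passed 0.128. *Kit*, listed for interstitial cells of Cajal, reached 26.5 in 1 line of cluster 3 and 0 in the lowest, with a mean of 8.85 ± 15.3 (SD, n = 3 lines), and its r with *Lgr6* over the 21 groups of cluster and line was 0.914. *Ano1*, the other gene of that list, was at 218.8 to 363.8 in all 3 lines. The part of such cells in the *Lgr6* value was not tested. Per kilobase of exon, *Lgr5* stood at 28.04 ± 5.74 and *Lgr4* at 3.53 ± 1.17 in the apex fibroblasts (SD, n = 3 lines), and no line of *Lgr4* reached the lowest of *Lgr5*.

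The question how the ligands and receptors lie along the crypt axis was tested on raw counts summed per cluster and line, with edgeR's quasi-likelihood test and Benjamini-Hochberg adjustment over all genes. Apex fibroblasts were set against the mean of clusters 1, 5 and 7. Because the authors had clustered the cells on these very counts, the tests are a description of the clusters and no independent evidence for them. Both widely counted receptors were higher at the apex than in these clusters and *Rspo3* was lower, a contrast that does not test a gradient. Of 5 genes tested 3 passed, 2 higher and 1 lower, where 7.51% of 18924 genes passed in either direction, 4.79% higher and 2.72% lower. *Lgr5* was higher with a log2 change of 8.40 ± 0.835 (SE, adjusted p = 7.64e-06, edgeR's quasi-likelihood test). *Lgr4* was higher with a log2 change of 2.97 ± 0.831 (SE, adjusted p = 0.0377 in edgeR). *Rspo3* was lower with a log2 change of -5.40 ± 1.17 (SE, adjusted p = 0.00733 in edgeR). All 3 kept their direction in each of the 3 lines with both groups.

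With the line as a block, which pairs the sums of a line, the log2 fold change was 9.26 for *Lgr5*, -5.81 for *Rspo3* and 3.15 for *Lgr4*, and the *Lgr4* call was lost at an adjusted p of 0.0655 by edgeR. Without the Acta2GFP line *Rspo3* (adjusted p = 0.137 by edgeR) and *Lgr4* (0.146) were no longer called, and *Lgr4* also lost its call without PdgfraGFP (0.124), without PdgfrbGFP (0.218) and with no filter on low counts (0.0583). *Lgr5* held its call in each of the 10 alternatives, at adjusted p-values up to 0.00180. *Rspo1* had a log2 change of -4.37 ± 1.42 (SE) that missed the threshold at an adjusted p of 0.0802 by edgeR and passed with DESeq2 (0.00140) and with plates in place of lines (0.0239). *Rspo2* had no count in cluster 2 and a mean level of 0.935 in clusters 1, 5 and 7, with an adjusted p of 0.123 by edgeR. Its counts came from few cells, 10 of them in cluster 1. The absence of a count at the apex therefore sets no bound on the fold, and none is given.

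**Figure D2:**
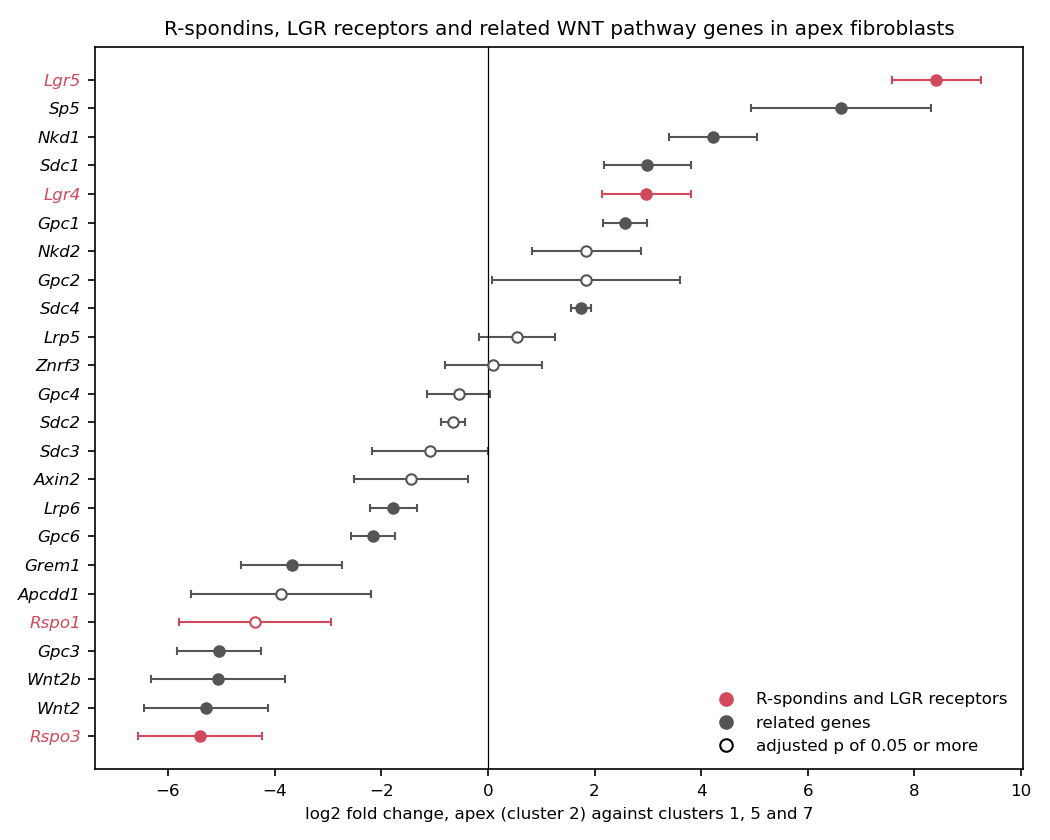
Log2 fold change with its standard error (edgeR, horizontal axis) of apex fibroblasts against clusters 1, 5 and 7, for the R-spondins and LGR receptors in red and the related WNT pathway genes in grey. Filled points have an adjusted p under 0.05; *Lgr5* stands highest at 8.40, *Rspo3* lies at -5.40, and *Rspo2*, with no count at the apex, is not drawn.

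The step from apex to the neighbouring cluster 6 was tested in the same fit. *Lgr5* was lower in cluster 6 than in cluster 2 with a log2 change of -7.97 ± 1.67 (SE, adjusted p = 0.0196, edgeR's quasi-likelihood test), the 1 call among 4 members tested, *Rspo2* having no count in either cluster, where 2.1% of genes passed and 1.52% were lower. The median over all genes of this contrast was -0.219. The call was lost with plates in place of lines (adjusted p = 0.0618 by edgeR), without the Acta2GFP line (0.297) and without PdgfraGFP (0.0741), which each leave 1 line of cluster 6, whose 45 cells include 10 of Acta2GFP mice. *Lgr4* had a log2 change of -1.50 ± 1.35 (SE, adjusted p = 0.631 by edgeR).

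Among the clusters of base and middle no member was called by edgeR. Cluster 7 against 5 called 0 of 5, where 0.037% of genes passed. At an unadjusted p under 0.05 there were 2, beside 6.28% of all genes. DESeq2, limma and edgeR on plates called 1 each, beside 1.28%, 0.333% and 0.191% of all genes. That gene was *Rspo1* each time, with a log2 change of -6.76 ± 1.60 (SE, adjusted p = 0.269 by edgeR), lower in cluster 7 in each of the 3 lines with both clusters. Its level was 0.00863 against 1.97 in Acta2GFP, 0.138 against 14.6 in PdgfraGFP and 0.220 against 13.8 in PdgfrbGFP mice. For *Rspo3* the same contrast gave 0.20 (SE 0.934, adjusted p = 1 by edgeR). Cluster 5 against 1 called 0 of 5 by edgeR, DESeq2 and limma, with 0 at an unadjusted p under 0.05. Of all genes 0.412% passed in edgeR, 0.164% higher in cluster 5, 2.39% in DESeq2 and 1.26% in limma, and 7.41% had an unadjusted p under 0.05. In this contrast *Rspo1* had a log2 change of 2.26 ± 1.26 (SE) and *Rspo3* of 0.25 (SE 0.941) by edgeR. Cluster 7 against 1 called 0 of 5 by edgeR, where 0.909% of genes passed, 0.333% higher in cluster 7 (1.46% in all with the line as a block). An unadjusted p under 0.05 was found for 2 members and 9.83% of all genes. DESeq2 called 1 (*Rspo1*) beside 4.27% of all genes and limma 1 (*Rspo2*) beside 2.36%.

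Fibroblasts of all clusters were also set against mural cells, the 2 archetypes of the study. *Rspo3* was at 21.8, 17.4, 11.2 and 8.39 in the fibroblasts of Acta2GFP, PdgfrbGFP, Cspg4dsRED and PdgfraGFP mice, and at 4.91, 0.856 and 0.127 in the mural cells of PdgfrbGFP, Acta2GFP and Cspg4dsRED mice. These values did not overlap, but the log2 change of 2.74 ± 1.203 (SE) had an adjusted p of 0.239 by edgeR, and the change was 5.37 without the PdgfrbGFP line and 2.02 to 2.98 without any 1 of the others. *Rspo1* was at 1.58 to 15.3 in the fibroblasts of 4 lines and at 0.0146 to 1.83 in the mural cells of 3, with a log2 change of 4.15 ± 1.23 (SE, adjusted p = 0.0794 by edgeR). The 1.83 was that of Acta2GFP mice, whose 3 pericytes, too few for a level of their own above, had a mean of 49.2 that came from 1 cell. Without this line the log2 change was 6.38, and without any 1 of the others 3.41 to 4.32. *Lgr5* reached 73.5 in the fibroblasts of PdgfraGFP mice and 0.0515 in those of Cspg4dsRED mice, of which 2 of 28 were apex cells, with a log2 change of 4.56 ± 1.76 (SE, adjusted p = 0.174), which was 7.89 without the Acta2GFP line and 3.42 to 4.49 without any 1 of the others. *Lgr4* had a log2 change of -1.09 ± 0.870 (SE, adjusted p = 0.576). In all 0 of 6 members were called by edgeR, where 6.57% of 19173 genes were, 3.21% higher and 3.36% lower (3.08% with the line as a block), while 5 had an unadjusted p under 0.05, as had 20.2% of all genes. DESeq2 called 3 (*Rspo1*, *Rspo2* and *Lgr5*) beside 15.9% of all genes, limma 1 (*Rspo3*) beside 7.94%, and edgeR on plates 1 (*Rspo1*) beside 16.1%.

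Within the mural cells, pericytes against vascular SMC called 0 of 4 members by edgeR, DESeq2 and limma and at an unadjusted p under 0.05. Over all genes, 0.668% of 16328 passed by edgeR, 5.92% by DESeq2 and 0% by limma, and 10.9% had an unadjusted p under 0.05. In the former 0.263% were higher and 0.404% lower (1.04% in all with the line as a block), and in the latter 0.398% were higher and 0.643% lower. *Rspo3* had a log2 change of 2.97 ± 2.12 (SE, adjusted p = 0.666 by edgeR) in pericytes against vascular SMC. *Lgr4* had 1.11 (SE 1.48) and *Lgr5* 4.18 (SE 2.29) in interstitial against vascular SMC, with adjusted p-values of 0.939 and 0.689 by edgeR, where the lone sum of cluster 8 was assumed to vary like the others.

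Single cells differed widely within a cluster. Of the apex fibroblasts 57.3% (95% Clopper-Pearson interval 48.3 to 65.9) held at least 1 count of *Lgr5*, 35.1% (26.98 to 43.9) at least 30 and 27.5% (20.05 to 35.96) at least 100. The median cell had a level of 1.74 and the highest 4213, and the 14 highest cells held 61.9% of the total. By line, 12 of 44 Acta2GFP, 22 of 55 PdgfraGFP and 12 of 30 PdgfrbGFP apex cells held at least 30 counts. These intervals cover counting error only. Outside cluster 2, 3 of 1515 cells reached 30 counts, 1 each in clusters 1, 5 and 8.

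*Rspo3* was counted in 48.9% of the cells of cluster 7, 49.9% of cluster 5 and 40.6% of cluster 1, and in 15.3% of cluster 2 and 10.9% of mural cells. After thinning each cell to 50000 counts these shares were 26.4%, 28.8%, 21.4%, 1.53% and 5.39%. At least 30 counts were found in 12.6% (95% Clopper-Pearson interval 8.51 to 17.6) of cluster 7, 13.9% (10.7 to 17.5) of cluster 5 and 7.04% (4.92 to 9.70) of cluster 1, and in 0% of apex cells, which allows a share of up to 2.29%. The median cell held 0 in each of clusters 1, 5 and 7, and the highest 49, 43 and 23 cells held 91.2%, 71.5% and 75.8% of the level. *Rspo1* had at least 30 counts in 22 cells of cluster 5, or 5.18% (3.27 to 7.73), and the highest 43 cells held 99.5% of its level. At least 30 counts of *Lgr4* were found in 17 apex cells, or 12.98% (7.74 to 19.96).

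**Figure D3:**
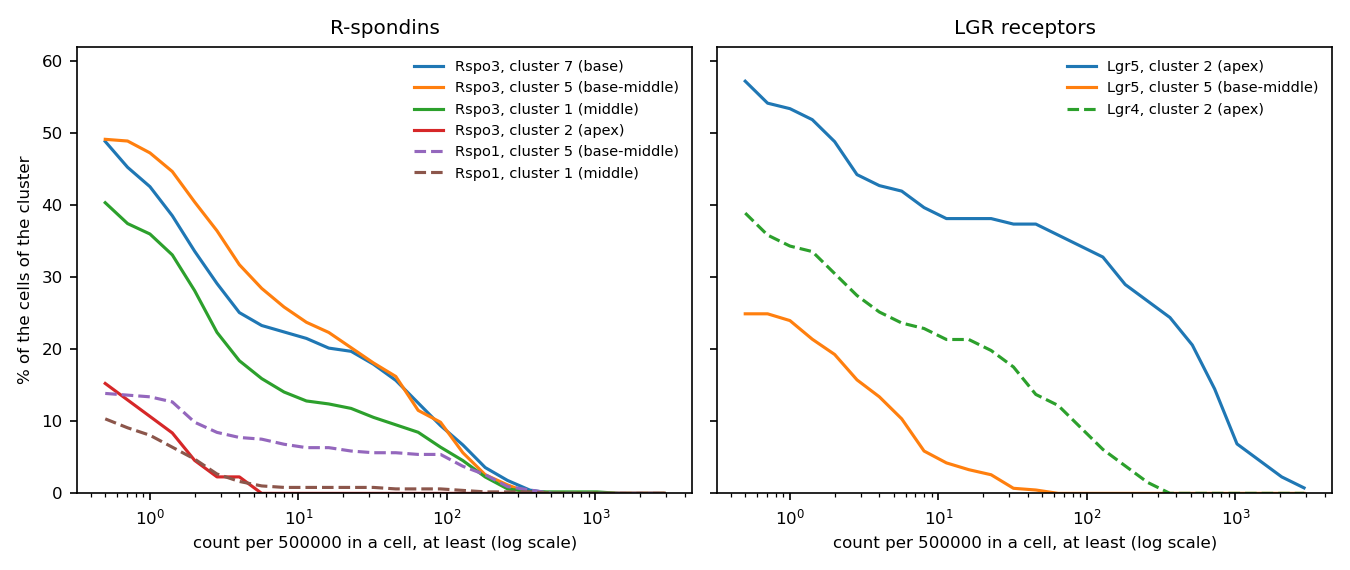
Share of the cells of a cluster (vertical axis) with at least the count per 500000 on the horizontal log axis, for R-spondins on the left and LGR receptors on the right. *Lgr5* in the apex holds a plateau, with 35.1% of cells at 30 raw counts or more, while *Rspo3* in clusters 7, 5 and 1 falls steadily and *Rspo1* stays low in cluster 5, where 5.18% of cells reach 30 counts.

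Low counts were compared with the position of a cell on its plate. The wells sharing a row or a column with a cell count as its neighbours here, and cells whose neighbours held at least 100 counts of a gene were compared with the rest. Outside cluster 2, 55.4% of the former held an *Lgr5* count and 4.89% of the 1044 latter. For *Rspo3* in clusters 2, 3, 4, 6 and 8 the shares were 33.3% and 1.67%, and for *Rspo1* outside cluster 5 they were 26.98% and 2.12%. Spearman's rho of a cell's count with the summed count of those wells was 0.285, 0.285 and 0.258 as a mean over 9, 8 and 9 plates. For *Lgr5* it ran from -0.221 to 0.851 and lay below 0 on 3 of 9 plates, none of which had a cell with such neighbours, and for *Rspo3* and *Rspo1* it lay above 0 on every plate. Within plates that had cells of both kinds, the share was higher in the former on 6 of 6 plates for *Lgr5*, 6 of 7 for *Rspo3* and 7 of 7 for *Rspo1*. It is given as a description, since the cells of a plate are not independent. The part of neighbouring wells in the low levels of these clusters was not tested.

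At 30 counts or more, none of the 46 *Lgr5* cells of the apex held *Rspo3*, nor did any of the other 85. Of these 46 cells 7 also held *Lgr4* (15.2%), against 10 of the other 85 (11.8%). In cluster 5, 4 of 22 *Rspo1* cells held *Rspo3* (18.2%), against 55 of the others (13.6%). *Rspo2* cells were 7 in all, and 2 of them held *Rspo3*.

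*Grem1*, the secreted BMP antagonist of the crypt base stroma, was present in a larger share of *Rspo3* cells than of other cells in clusters 1 and 5, which is given as a description. At 30 counts or more it was present in 23 of 34 *Rspo3* cells of cluster 1 (67.6%) and in 46.3% of the others, and in 33 of 59 (55.9%) and 26.8% in cluster 5. In cluster 7, where *Grem1* was at 13.7 ± 15.5 (SD, n = 3 lines) against 246.5 ± 120.4 (n = 4) in cluster 5, the shares were 2 of 28 (7.14%) and 4.62%. *Wnt2*, a ligand of this stroma, was present in 11 of 28 *Rspo3* cells of cluster 7 (39.3%) and in 78 of the others (40%). *Rspo3* cells were deeper than the others, with a median of 394782 against 241244 counts over the 3 clusters, and the part of depth in these shares was not tested.

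A list of 25 genes around the R-spondin pathway was followed in the same contrasts. At the apex against clusters 1, 5 and 7, 5 of 20 tested were higher and 6 lower, where 7.51% of all genes passed, 4.79% higher and 2.72% lower, with a median log2 fold change of -0.60 beside 0.02 over all genes. The 3 niche factors were lower at the apex, as *Rspo3* was. *Grem1* fell by 3.68 on the log2 scale, from 267.4 ± 35.6 in cluster 1 (SD, n = 3 lines), 246.5 ± 120.4 (n = 4) in cluster 5 and 13.7 ± 15.5 (n = 3) in cluster 7 to 6.28 ± 8.61 (n = 3). Its lines in cluster 7, at 3.63 to 31.5, overlapped those of the apex, at 1.02 to 16.2. *Grem1*, *Wnt2*, which fell by 5.28, and *Wnt2b*, which fell by 5.06, had adjusted p-values of 0.0230, 0.00817 and 0.0180 by edgeR's quasi-likelihood test. Of 5 WNT feedback targets tested 2 were higher, *Nkd1*, an intracellular WNT antagonist, by 4.22 and *Sp5*, a WNT-induced transcription factor, by 6.62, at a level of only 1.40 ± 1.38 (SD, n = 3 lines) so that its fold rests on few counts, while *Axin2*, the most used readout of WNT signalling, had -1.44 (adjusted p = 0.529 by edgeR). Of 9 heparan sulphate proteoglycans, surface molecules that bind R-spondins and WNTs, 3 were higher, *Sdc1* (2.99), *Sdc4* (1.74) and *Gpc1* (2.57), and 2 lower, *Gpc3* (-5.04) and *Gpc6* (-2.15). The WNT co-receptor *Lrp6* was lower (-1.77) and *Lrp5* had 0.54. Among the 9 that did not pass, values ran from -3.88 for *Apcdd1* (adjusted p = 0.214 by edgeR) to 1.85 for *Nkd2* and *Gpc2*.

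Of the 2 ligases that R-spondins act through, *Znrf3* had 9494 counts in all cells and *Rnf43* 17. *Znrf3* had a level of 6.37 ± 6.37 in cluster 2 and 6.29 ± 1.82 in cluster 1 (SD, n = 3 lines), with a log2 change of 0.10 ± 0.905 (SE) at the apex, and *Rnf43* was not tested. The other LGR4 ligands, *Ndp* with 29 counts and *Tnfsf11* with 5, were also too low to test. In fibroblasts against mural cells *Grem1* (5.02) and *Wnt2* (6.10) were higher and *Nkd1* lower (-4.95), 3 of 19 tested, where 6.57% of all genes passed, 3.21% higher and 3.36% lower. Beyond these, *Gpc4* (-3.69) and *Nkd1* (-3.04) were lower in pericytes than in vascular SMC, where 0.668% of all genes passed, and *Sdc4* (-1.85) in cluster 6 against 2, where 2.1% passed. *Gpc4* lost its call without the Acta2GFP line (adjusted p = 0.148 by edgeR), as did *Nkd1* (0.0744), and limma called neither (0.265 and 0.0548), nor any gene of this contrast. *Gpc4* also lost its call with the line as a block (0.0793) and with sums of at least 3 cells (0.201). *Gpc6* had -4.40 (adjusted p = 0.0421 by edgeR) in interstitial against vascular SMC, where 1.04% of all genes passed. The interstitial SMC are a sum of 1 line, assumed to vary like the other sums, and the call was lost with the line as a block (0.0729). By edgeR no gene of the list was called between clusters 7, 5 and 1.

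The lines were compared within clusters 1 and 5, with plates as samples, because the other label of a cell is its strain. By edgeR no gene passed in either cluster (0% of 15700 and 15451 genes), while 2.77% and 3.18% had an unadjusted p under 0.05, DESeq2 called 26 and 56 and limma 0 and 1. No member passed by any of the 3 tools or at an unadjusted p under 0.05, of 5 and 4 tested. Among members given a fold, *Rspo1* in cluster 5 had the log2 change of largest size. Its level was 3.75 and 1.28 on the 2 Acta2GFP plates and 8.33 to 62.97 on the 4 PdgfrbGFP plates, which do not overlap. Its log2 change of -2.67 ± 1.30 (SE) had an adjusted p of 1.00 by edgeR. For *Rspo3* in cluster 5 the plates of the lines overlapped at 22.9 and 27.8 against 13.8 to 33.01, with a log2 change of -0.04 ± 0.664 (SE), and in cluster 1 at 11.5 and 40.5 against 0.0960 to 14.9, with 1.43 (SE 1.28). The *Lgr5* level of the apex was 222.3 on the Acta2GFP plate with at least 10 such cells, 187.1 and 390.2 on the PdgfraGFP and 253.2 and 439.9 on the PdgfrbGFP plates.

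**Figure D4:**
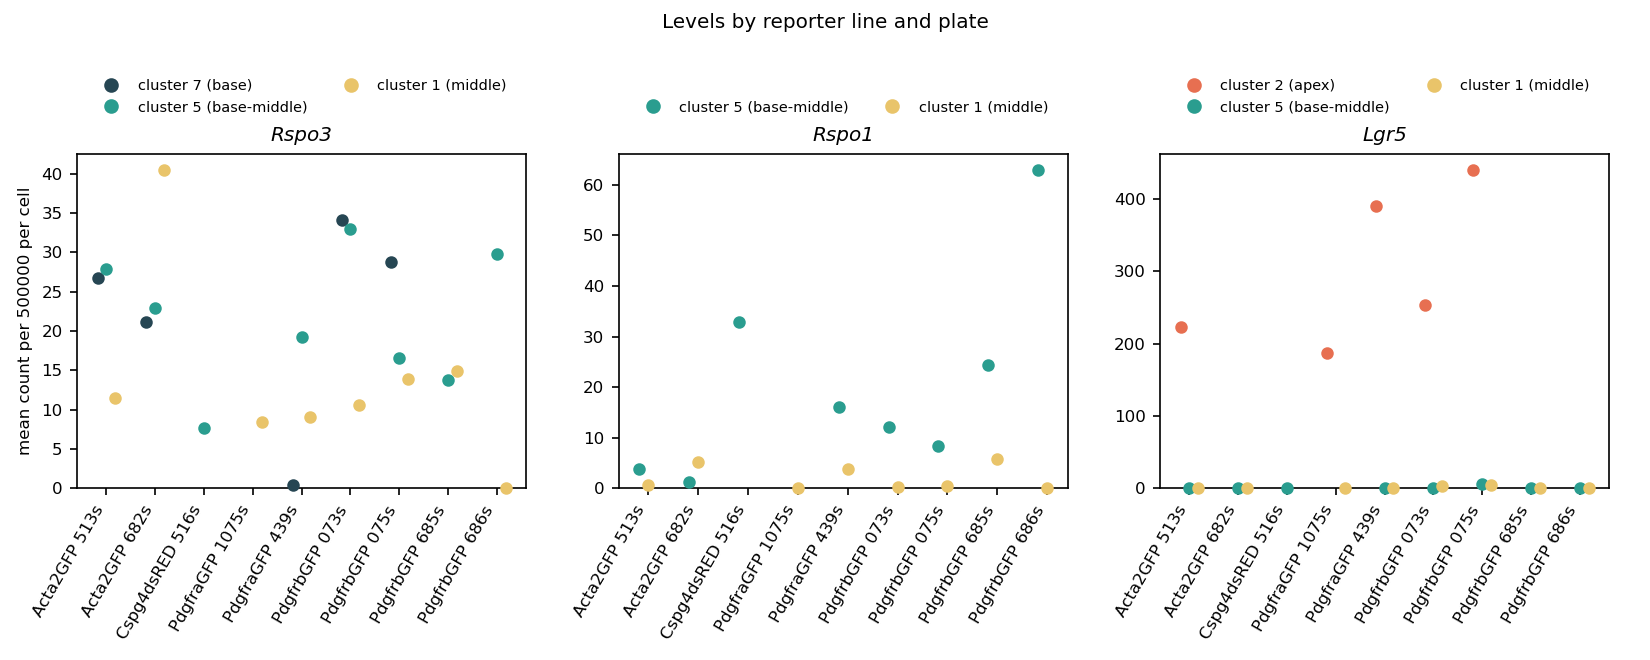
Mean count per 500000 per cell (vertical axes, each with its own range) of *Rspo3*, *Rspo1* and *Lgr5* on each plate with at least 10 cells of the cluster, 1 point per cluster and plate. *Rspo1* of cluster 5 is at 3.75 and 1.28 on the Acta2GFP plates and 8.33 to 62.97 on the PdgfrbGFP plates, and *Lgr5* of the apex is at 187.1 to 439.9 on all 5 plates.

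Genes with the most similar pattern were sought by Pearson's r of log2(level + 1) over the 21 groups of cluster and line, among 12572 genes with a level of at least 10 in a group. The groups share lines and plates, and r is a description. For *Lgr5* these were *Slco4a1* (r = 0.981), *Lpar3* (0.980) and *Nrg1* (0.980), which encode an organic anion carrier, a lysophosphatidic acid receptor and neuregulin. For *Rspo3* they were *Lepr*, the leptin receptor (0.944), *Ptprd* (0.941) and *Gm16897* (0.926). For *Rspo1* they were *Nt5e*, the surface nucleotidase CD73 (0.932), *Art4* (0.866) and *Sult1e1* (0.854). For *Rspo2* they were *Frmpd4* (0.927), *Bend5* (0.852) and *Nat8f3* (0.839), and for *Lgr4*, whose r was lowest, *Wfs1* (0.803), *Rell1* (0.783) and *Cib2* (0.782).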

How the data were processed

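The authors deposited a table of raw counts per gene and cell, made by featureCounts from reads aligned to GRCm38 (mm10) with TopHat2. The submitters' processing notes also name bcl2fastq, Bowtie, Bowtie2 and Subread. Of 46609 table entries 92 were spike-ins, with 1.36% of all counts, and were left out of totals and tests, and 0 columns of other samples were present. Clusters and lines came from the labels.

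Levels are means over cells of counts per 500000. Raw counts were summed per cluster and line, and sums of at least 10 cells were tested by edgeR's quasi-likelihood test (4.0.16, R 4.3.3) with Benjamini-Hochberg adjustment over all genes, at a threshold of 0.05. Alternatives were DESeq2 (1.42.0), limma (3.58.1) on means per cell, no filter on low counts, a minimum of 3 cells, plates in place of lines, the line as a block, and each line or plate left out. For members no fold is given where both sides lie under 3 counts per 500000. On simulated data with 200 genes changed by a log2 of 4, edgeR recovered 85% for fibroblasts against mural cells, 70% for cluster 7 against 5, 53.5% for cluster 4 against 3, and 45% and 61.5% for the lines in clusters 1 and 5, with 7, 1, 16, 2 and 6 false calls. Thinning left out 11 cells, and no doublet caller was run. Python 3.11.15 and scipy 1.17.1 were used for shares and intervals.

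The reported fits have no block. Sums of a line come from the same plates, which pairs them, and the fit with the line as a block is given as an alternative. Deviations from the group means correlated at 0.152 to 0.175 between fibroblasts and mural cells of a line, 0.150 to 0.157 between pericytes and vascular SMC, and 0.0207 to 0.223 between fibroblast clusters.

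The members, marker lists and related genes (ligases, co-receptors, heparan sulphate proteoglycans, other LGR4 ligands, WNT feedback targets and niche factors) were chosen with earlier results of these data known. Named genes were the members, the related genes that passed or that the text needed, and the 3 genes of highest r for each member tested along the crypt axis, which leaves out *Lgr6*. *Kit* beside *Lgr6* was chosen after its values were seen.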

Additional observations from a re-analysis of the deposited data

Results flagged for a closer look

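Over 20 groups of 4 lines or plates, 6 had 1 value whose gap to the nearest of the others, divided by the whole range, passed Dixon's 95% limit, which chance passes in about 1 in 20 groups. The groups share plates and lines, so these 6 are not independent. *Rspo1* in cluster 1 was at 5.71 on 1 plate of PdgfrbGFP mice, against 0.0322 to 0.401 on the other 3 plates. *Rspo2* in fibroblasts was at 0 in Cspg4dsRED mice and at 1.03 to 1.07 in the other 3 lines. *Rspo2* was at 3.66 in cluster 1 and 2.40 in cluster 5 on another plate of PdgfrbGFP mice, and at 0 on their other 3. *Lgr5* in cluster 5 was at 3.33 in PdgfrbGFP mice, and 1 of their plates stood at 6.01, against 0 to 0.738 on the other 3.

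For *Rspo3* the difference between clusters 7 and 5 had opposite signs in the 2 lines with 2 plates of both. Cluster 7 minus cluster 5, as the mean over plates of the difference in counts per 500000, was 6.64 in PdgfrbGFP and -1.48 in Acta2GFP mice, each with the same sign on both plates. This difference between lines was not tested.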

How the results depend on the processing

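Of the alternatives to 27 fold changes of R-spondins and receptors, 87.6% kept direction and side of the threshold, 9 lost a call, 9 gained one and 15 changed sign, all 15 without a call. Fibroblasts against mural cells called 3 members with DESeq2, 1 with plates and 1 with limma. Cluster 7 against 5 called 1 with each of the 3, and cluster 7 against 1 called 1 with DESeq2 and 1 with limma. Leaving out 1 line gave 1 to 3 calls at the apex, and 0 to 1 for cluster 6 against 2, where plates gave 0. The line as a replicate block, which pairs the sums, changed the call of *Lgr4* at the apex (3.15) and no other member's call.

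The log2 fold changes that changed sign had no call under either setting. For cluster 7 against 5, *Rspo3* was at -0.37 with the block, -0.16 with limma and -0.17 to 0.57 with a line left out, and *Lgr4* at -0.018 with limma. *Rspo3* in cluster 5 against 1 ran from -0.19 to 0.75 with a line left out. *Lgr4* in cluster 7 against 1 was at -0.089 with limma, and in cluster 4 against 3 it was at 0.019 with plates, 0.047 with limma and -2.94 to 0.55 with a line left out. Between lines with a plate left out, *Lgr4* in cluster 1 ran from -1.22 to 0.049, and in cluster 5 *Rspo3* ran from -0.30 to 0.44 (0.20 with limma) and *Lgr5* from -3.00 to 0.62. The cause of these changes was not tested.

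The share of all genes tested that was called ranged over the alternatives from 1.81% to 16.1% (6.57% as reported) for fibroblasts against mural cells, 0% to 1.28% (0.037%) for cluster 7 against 5, 0.0299% to 2.84% (0.412%) for 5 against 1, 0.0748% to 4.27% (0.909%) for 7 against 1, 2.70% to 12.9% (7.51%) for the apex, 0.125% to 12.4% (2.1%) for 6 against 2, 0% to 5.92% (0.668%) for 4 against 3 and 0.784% to 5.88% (1.04%) for 8 against 3. Between lines it reached 0.172% in cluster 1 and 0.376% in cluster 5 (0% as reported). Scaled sums in place of means over cells moved 3 levels by more than 1 SD, *Lgr4* in clusters 1 (2.17) and 3 (10.1) and *Lgr6* in cluster 4 (0.238). Groups had 1 to 4 lines, and cluster 8 was 1 line.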
